A study of Bos taurus and Sus scrofa with 10 samples.

Results

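The BCL2 family apoptosis regulators described here are 10 genes that hold back, form or trigger the pore in the outer mitochondrial membrane through which a cell commits to apoptosis. They were chosen by symbol: BCL2L10, MCL1, BCL2 and BCL2L1, then BAX, BAK1 and BOK, then BCL2L11, BID and BAD. Of 22845 cow rows 9 were members, and of 21867 pig rows 7 were, which makes 16 rows of 44712 in all and 6 symbols found in both species. BCL2L10 was not analysed here in cow, and MCL1, BCL2 and BAX were not analysed here in pig. RNA sequencing of total RNA was done on cow (Bos taurus) and pig (Sus scrofa) oocytes, 2-4 cell embryos, 8-16 cell embryos, morulae and blastocysts. Each of these stages had 1 library per species, 10 libraries in all. No treatment, breed, sire, culture system or number of oocytes or embryos per library is given in the sources used here. By its title the series belongs to work on methylation of DNA and imprinted genes in preimplantation embryos of both species.

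As background, the family is built around short BCL2 homology (BH) regions. Guardian proteins such as MCL1 and BCL-XL (the product of BCL2L1) bind and hold the pore formers BAX and BAK1, and the BH3-only proteins occupy the groove of the guardians or act on the pore formers directly. Once the pore opens, cytochrome c leaves the mitochondrion and, with APAF1, switches on caspases. In the early embryo of mammals the first of these RNAs come from the oocyte, and later ones are made after the embryonic genome is switched on. Transcript levels say nothing direct of the proteins, several of which are regulated by turnover or cleavage.

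Levels are reads per 1000000 library reads (RPM). They take no account of how long a gene is, so they compare a gene between stages and not one gene with another. Read totals ran from 3002751 in pig morulae to 14182046 in cow blastocysts. The value in parentheses after a level is its exact 95% Poisson interval, which covers counting error only. A gene with 0 reads could be present at up to 3 reads, the floor, which is between 0.212 and 0.999 RPM across the libraries. Differences are of log2(RPM + 1), later minus earlier stage, a scale that understates the change of low genes. A gene was compared when 1 of both libraries held at least 1 RPM, and it is said to have risen or fallen when the difference was 2 or more, 4-fold on that scale. With 1 library per group no difference has a replicate check and no test was possible. All values are shares of a library. A lower level can mean fewer cells of a type, less RNA per cell or more RNA of other genes, and these cannot be told apart.

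The oocyte and blastocyst labels were checked against marker genes. The summed level of 11 oocyte markers, among them ZP2 and GDF9, dropped from 6604 RPM in cow oocytes to 0.353 RPM in cow blastocysts. In pig it dropped from 8463 to 23.6 RPM. At the 2-4 cell, 8-16 cell and morula stages this sum was 6160, 820 and 131 RPM in cow. In pig it was 4728, 4247 and 288 RPM at these stages. The sum fell at each step, but no marker list was specific to the stages between oocyte and blastocyst. The 9 blastocyst markers measured, among them KRT8 and KRT18, reached a sum of 3429 RPM in blastocysts of cow and 7919 RPM in those of pig, against 154 and 77.6 RPM in oocytes. The keratins KRT8 and KRT18 gave most of the cow sum, and ATP1B1 went the other way. In cow ATP1B1 went from 105 RPM in oocytes to 5.99 RPM in blastocysts, and in pig from 14.2 to 6.17 RPM. TFAP2C was highest before the blastocyst, at the 8-16 cell stage in cow (232 RPM) and in morulae in pig (502 RPM). Of the cumulus cell markers, which would show attached somatic cells, 5 of 10 in cow and 5 of 8 in pig reached 1 RPM in oocytes. Their summed level ranged from 39.5 to 221 RPM over the cow stages and from 17.7 to 67.0 RPM over the pig stages, and LHCGR, AMH, FST and INHA were at 0 reads in cow oocytes and TNFAIP6 and INHA in pig oocytes. Most of the sum came from STAR and FSHR, at 157 and 37.3 RPM in cow oocytes and at 43.2 and 11.3 RPM in pig oocytes. Their part in the results below was not tested. The mitochondrial share of reads was 4.40% in cow oocytes and 30.2% in cow blastocysts, which lowers the RPM of all other genes in the latter.

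BCL2L1 rose and fell between stages in both species, and its low point lay at different stages. BCL2L1 encodes BCL-XL, which holds BAX and BAK1 in check. The cow row lies on chromosome 13, 61766806 to 61817383 (minus strand), and the pig row on chromosome 17, 35315475 to 35415778 (minus strand), as the authors' tables give them; the builds named for the series are UMD3.1 and Sscrofa11.1. In cow BCL2L1 stood at 14.4 RPM in oocytes (11.2 to 18.2), 29.1 RPM at the 2-4 cell stage (24.3 to 34.5), 3.68 RPM at the 8-16 cell stage (2.25 to 5.69), 29.5 RPM in morulae (24.3 to 35.4) and 126 RPM in blastocysts (121 to 132). The 8-16 cell library was thus the lowest of the cow series and its interval met none of the others. Between the 2-4 cell and 8-16 cell stages cow BCL2L1 fell 7.89-fold (95% interval of the ratio 4.91 to 13.4), and it then rose 8.01-fold to the morula (4.95 to 13.6) and 4.29-fold to the blastocyst (3.55 to 5.22).

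In pig BCL2L1 stood at 234 RPM in oocytes (218 to 250.5), 215 RPM at the 2-4 cell stage (201 to 229), 344 RPM at the 8-16 cell stage (324 to 365), 22.6 RPM in morulae (17.6 to 28.7) and 98.4 RPM in blastocysts (88.6 to 109). Here the low point was the morula, 1 stage later than in cow. The summed oocyte markers stood at 820 RPM in the cow 8-16 cell library and at 4247 RPM in the pig one. In pig morulae they stood at 288 RPM. Whether the later low point is particular to BCL2L1 was not tested. The pig BCL2L1 fall from the 8-16 cell stage to the morula was 15.2-fold (11.9 to 19.7). Its rise from there to the blastocyst was 4.34-fold (3.35 to 5.71). From oocyte to blastocyst the difference was 3.05 in cow and -1.24 in pig, where it did not reach 2. The pig row shares 192 bases with TPX2, a spindle gene on the other strand that went from 522 RPM in oocytes through 673 RPM at the 8-16 cell stage to 281 RPM in morulae. How strand was handled in counting is not given in the sources used here, so reads in that stretch cannot be assigned. The pig row also encloses ID1 and COX4I2, which had 0 or 1 read in each library. The cow row overlaps no other row. The last rise passed 2 in both species by a small margin: with median scaling of the libraries it was 1.82 in cow and 1.90 in pig.

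BCL2L10, a guardian known for its high expression in oocytes, lies on pig chromosome 1, 119597088 to 119599685 (plus strand), and its row overlaps no other. It stood at 28.7 RPM in pig oocytes (23.3 to 35.03), 20.8 RPM at the 2-4 cell stage (16.6 to 25.7), 9.48 RPM at the 8-16 cell stage (6.39 to 13.5) and 2.33 RPM in morulae (0.937 to 4.80), where it rested on 7 reads. The blastocyst library held 0 reads, which allows up to 0.804 RPM. Each library was lower than the one before it, and neighbouring intervals overlapped between the oocyte and 2-4 cell libraries only. No single step reached a difference of 2, while from oocyte to blastocyst BCL2L10 fell at least 35.7-fold, with a difference of -4.58.

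MCL1, a guardian with a short-lived protein, was analysed in cow on chromosome 3, 20172325 to 20176960 (plus strand). Its level was 97.4 RPM in oocytes (88.8 to 106), 89.0 RPM at the 2-4 cell stage (80.4 to 98.2), 167 RPM at the 8-16 cell stage (156 to 178), 241 RPM in morulae (226 to 257) and 256 RPM in blastocysts (247 to 264). The 2 early libraries overlapped each other, as did the 2 late ones, with the 8-16 cell library between them. Over the whole course the ratio was 2.62 (2.39 to 2.89) and the difference 1.38, short of 2. That difference lay between 0.88 and 1.89 under 3 other scalings of the libraries.

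BCL2, the founding guardian of the family, lies on cow chromosome 24, 61914152 to 62105526 (minus strand). It stood at 2.03 RPM in oocytes (0.973 to 3.73), 2.93 RPM at the 2-4 cell stage (1.56 to 5.01), 22.6 RPM at the 8-16 cell stage (18.8 to 27.02), 12.1 RPM in morulae (8.86 to 16.03) and 6.49 RPM in blastocysts (5.23 to 7.96). Its highest library was therefore the one in which BCL2L1 was lowest. BCL2 rose 7.73-fold between the 2-4 cell and 8-16 cell stages (4.36 to 14.9), and its later differences of -0.86 and -0.80 did not reach -2.

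**Figure D1:**
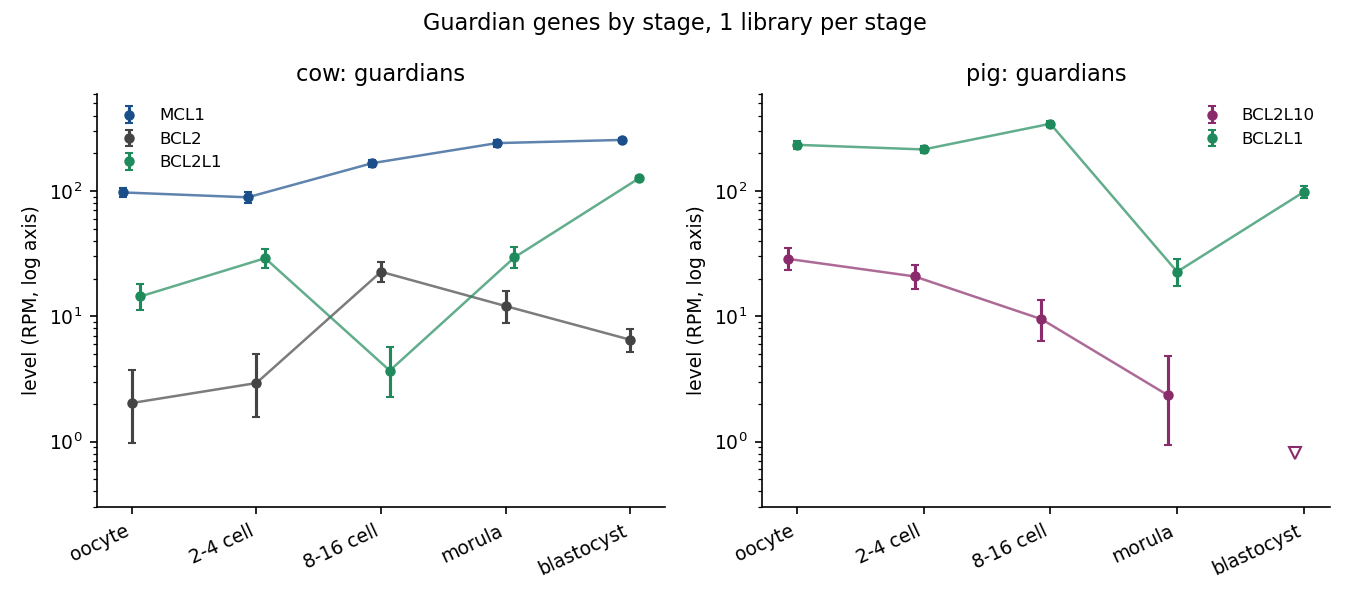
Levels of the guardian genes (RPM, log axis) over the 5 stages in cow (MCL1, BCL2, BCL2L1) and pig (BCL2L10, BCL2L1). Points are single libraries, bars are exact 95% Poisson intervals, and the open triangle marks 0 reads, drawn at the floor of 0.804 RPM; BCL2L1 dips to 3.68 RPM at the cow 8-16 cell stage and to 22.6 RPM in pig morulae.

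The make-up of the guardian reads also shifted, a measure that does not depend on library scaling. Because genes differ in length, these shares are read over stages and not between genes. The cow shares are of MCL1, BCL2 and BCL2L1 reads. They leave out the guardian BCL2L2, which was not among the chosen members. In cow BCL2L2 had 53, 74, 16, 2 and 8 reads from oocyte to blastocyst. In cow BCL2L1 gave 12.7% of the reads of the 3 guardians in oocytes (95% Wilson interval 10.2 to 15.7), 24.0% at the 2-4 cell stage (20.6 to 27.8), 1.91% at the 8-16 cell stage (1.24 to 2.93), 10.4% in morulae (8.77 to 12.4) and 32.5% in blastocysts (31.3 to 33.8). The BCL2 share was highest at the 8-16 cell stage, at 11.7% (9.92 to 13.8), and between 1.67% and 4.26% elsewhere. The MCL1 share lay between 65.8% in blastocysts and 86.4% at the 8-16 cell stage. In pig BCL2L10 gave 10.9% of the reads of the 2 guardians in oocytes (9.06 to 13.2), 2.68% at the 8-16 cell stage (1.88 to 3.80) and 9.33% in morulae (4.59 to 18.03), where BCL2L1 had fallen.

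The pore formers were low in all 5 cow libraries. BAX, which moves from the cytosol to the mitochondrion, lies on cow chromosome 18, 55985202 to 55989378 (plus strand). It had 2 reads in oocytes, 1.35 RPM at the 2-4 cell stage (0.496 to 2.94), 0 reads at the 8-16 cell stage (up to 0.552 RPM), 3 reads in morulae and 3.24 RPM in blastocysts (2.37 to 4.33). Its difference from oocyte to blastocyst was 1.59, a ratio of 8.00 with an interval of 2.09 to 68.0 that reflects the 2 oocyte reads. BAK1, which sits in the mitochondrial membrane, lies on cow chromosome 23, 7655892 to 7658885 (minus strand). It had 1, 2 and 0 reads in the first 3 cow libraries, then 2.31 RPM in morulae (1.06 to 4.38) and 1.34 RPM in blastocysts (0.807 to 2.09).

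BOK, a pore former that guardians hold back little, lies on cow chromosome 3, 121098866 to 121111324 (plus strand), and on pig chromosome 15, 140171129 to 140186481 (plus strand). In cow it had 0 reads in each of the first 3 libraries, 3 reads in morulae and 9.17 RPM in blastocysts (7.66 to 10.9). The blastocyst library stood alone, and BOK rose there by 2.52 over the morula, a ratio of 11.9 (3.99 to 58.5), and at least 15.1-fold over the oocyte. In pig BOK had 0 reads in the oocyte, 2-4 cell and morula libraries, 4 reads at the 8-16 cell stage and 11 reads in blastocysts, which is 2.95 RPM (1.47 to 5.28), and no difference reached 2.

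BAK1 in pig lies on chromosome 7, 29807011 to 29962947 (minus strand), a span of 155937 bases against 2994 in cow. It stood at 15.7 RPM in oocytes (11.8 to 20.5), 3.62 RPM at the 2-4 cell stage (2.03 to 5.98), 17.7 RPM at the 8-16 cell stage (13.4 to 23.0), 55.9 RPM in morulae (47.8 to 65.1) and 108 RPM in blastocysts (97.8 to 119). The low point was the 2-4 cell library and each later one was higher than that before it. From oocyte to blastocyst BAK1 rose 6.89-fold (5.16 to 9.35). The wide pig row encloses ITPR3, a calcium channel gene on the other strand, which stood at 12.4, 2.42, 8.53, 4.00 and 70.2 RPM over the same libraries. ITPR3 moved in the same direction as the pig BAK1 row at the first 2 steps and at the last, and in the opposite direction at the step to the morula. Whether ITPR3 reads entered the BAK1 row was not tested.

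The 3 BH3-only genes, whose products trigger the pathway, had 8 reads or fewer in cow oocytes and 0 reads in pig oocytes. BCL2L11 encodes BIM, which binds all the main guardians. It lies on cow chromosome 11, 1156954 to 1199792, and pig chromosome 3, 45161122 to 45201186, both on the minus strand. In cow it had 4 reads in oocytes and 2 at the 2-4 cell stage, then 7.18 RPM at the 8-16 cell stage (5.11 to 9.81), 3.08 RPM in morulae (1.59 to 5.38) and 4.16 RPM in blastocysts (3.17 to 5.37). In pig it had 0 reads in oocytes (up to 0.888 RPM), then 7.01 RPM at the 2-4 cell stage (4.69 to 10.1), 12.9 RPM at the 8-16 cell stage (9.29 to 17.6), 2.00 RPM in morulae (0.733 to 4.35) and 9.38 RPM in blastocysts (6.54 to 13.1). BCL2L11 rose by 2.50 between the 2-4 cell and 8-16 cell stages in cow. In pig it rose at least 7.89-fold between oocyte and 2-4 cell stage, a difference of 2.66.

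In pig BCL2L11 also fell at the morula, 6.48-fold (2.74 to 18.7), the step at which BCL2L1 fell. In cow the same step took BCL2L11 down by a ratio of 2.33 (1.197 to 4.89), a difference of -1.004 that did not reach -2.

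BID links death receptors to the mitochondrion once caspase-8 has cut it. It lies on chromosome 5 in both species, 109639251 to 109656755 in cow and 69849002 to 69875853 in pig, on the minus strand. In cow it stood at 1.62 RPM in oocytes (0.701 to 3.20), 1.58 RPM at the 2-4 cell stage (0.634 to 3.25), 11.2 RPM at the 8-16 cell stage (8.59 to 14.4), 4.10 RPM in morulae (2.35 to 6.66) and 2.12 RPM in blastocysts (1.43 to 3.02). In pig it had 0 reads in the oocyte and 2-4 cell libraries, then 3.16 RPM at the 8-16 cell stage (1.51 to 5.81), 15.7 RPM in morulae (11.5 to 20.8) and 5.36 RPM in blastocysts (3.28 to 8.28). The peak was thus the 8-16 cell library in cow and the morula library in pig, and neither peak overlapped any other library of its species. BID rose 7.12-fold in cow between the 2-4 cell and 8-16 cell stages (3.25 to 18.5), and 4.96-fold in pig from the 8-16 cell stage to the morula (2.47 to 11.0). The pig difference of 2.00 was just past the threshold, and was 1.84 with median scaling.

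BAD, a BH3-only protein inactivated by survival kinases, lies on cow chromosome 29, 43190201 to 43201983 (minus strand), and pig chromosome 2, 7830920 to 7842862 (plus strand). The pig row shares 50 bases with GPR137 on the other strand. In cow BAD had 2 reads in each of the first 2 libraries, then 4.97 RPM at the 8-16 cell stage (3.28 to 7.23), 7.69 RPM in morulae (5.19 to 11.0) and 1.27 RPM in blastocysts (0.752 to 2.01). In pig it had 0 reads in the first 2 libraries, then 4.42 RPM (2.42 to 7.42), 11.0 RPM (7.56 to 15.4) and 1.88 RPM (0.755 to 3.87) at the same stages. In both species the level was highest in morulae, but in cow the ratio of morulae to 8-16 cell embryos of 1.55 had an interval of 0.889 to 2.71, which includes 1. Between the 2-4 cell and 8-16 cell stages BAD rose by 2.04 in cow and by 2.15 in pig. In pig it then fell 5.86-fold between morula and blastocyst (2.55 to 15.7), a difference of -2.06 that was -1.93 with quantile normalisation. The cow difference of -1.94 at that step stayed just short of -2 and was -2.18 with median scaling. The pig rise was 1.72 with median scaling and 1.97 with quantile normalisation. Where the libraries of 0 to 2 reads were set to the floor instead, the BAD rises were 1.83 in cow and 1.65 in pig.

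**Figure D2:**
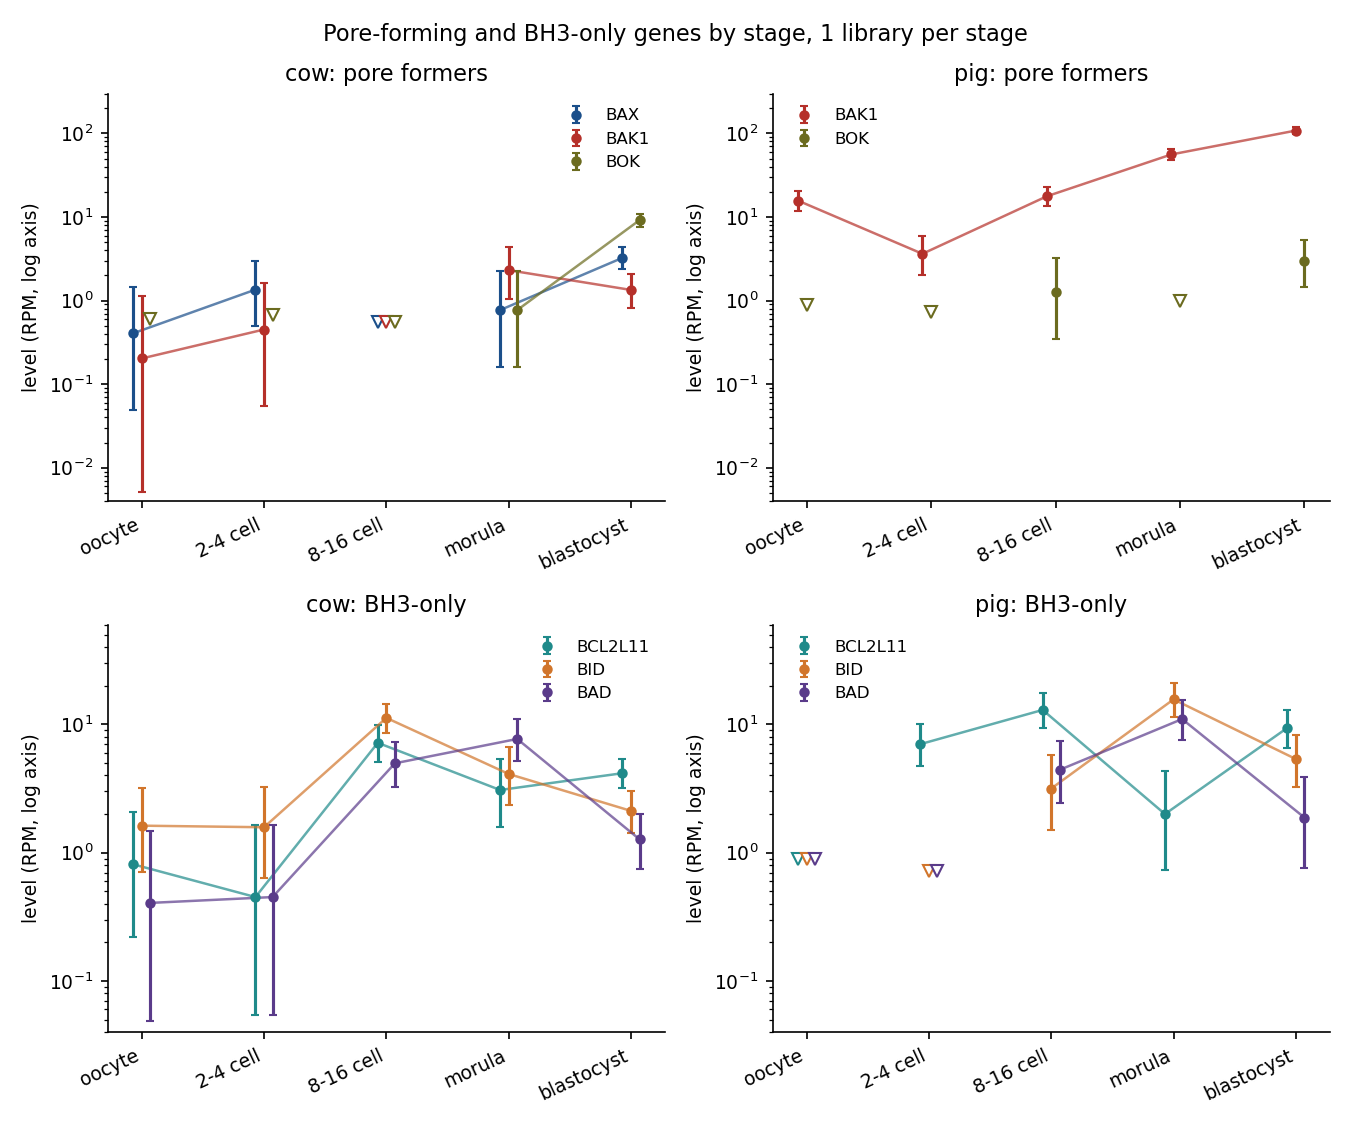
Levels of the pore-forming genes (top) and BH3-only genes (bottom) in RPM on log axes over the 5 stages, cow on the left and pig on the right, with exact 95% Poisson bars; open triangles mark 0 reads, drawn at the floor of that library. The cow pore formers stay under 10.9 RPM at the top of every bar, and BID is highest at the 8-16 cell stage in cow and in morulae in pig.

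The members' counts were set beside the same count over all compared genes. Between cow oocytes and 2-4 cell embryos 0 of 5 compared members rose or fell, where 0.374% of all 11226 compared genes did (0.196% higher, 0.178% lower). Between the cow 2-4 cell and 8-16 cell stages 5 of 7 did, BCL2, BCL2L11, BID and BAD higher and BCL2L1 lower, against 27.2% of 12405 genes (12.6% higher, 14.6% lower). All 3 BH3-only genes rose there. At the cow step to the morula 1 of 7 moved, BCL2L1 higher, against 11.8% (6.67% higher, 5.15% lower). At the cow step to the blastocyst it was 2 of 9, BCL2L1 and BOK higher, against 23.4% (11.9% higher, 11.5% lower). The members' median difference at the step to the 8-16 cell stage was 2.04 (1.83 with values at or under the floor set to it), and the median of all genes was -0.44. At that step the split over all genes turned round under the other scalings: 15.1% higher and 12.7% lower with non-mitochondrial scaling, 14.4% and 11.5% with median scaling, and 14.2% and 11.5% with quantile normalisation. With median scaling the split became 0.0624% higher and 0.383% lower at the first cow step, and 9.44% and 14.5% at the last.

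In pig 1 of 4 compared members, BCL2L11, rose between oocytes and 2-4 cell embryos, where 5.43% of 11362 genes rose or fell (3.26% higher, 2.17% lower). Between the 2-4 cell and 8-16 cell stages 2 of 7 rose, BAK1 and BAD, against 4.87% of 12153 genes (4.33% higher, 0.543% lower). Neither BAK1 nor BAD passed with median scaling or with quantile normalisation, which gave 2.00% higher and 1.59% lower, and 2.96% and 1.76%, over all genes at this step. Median scaling gave 3.98% higher and 1.62% lower at the first step. At the step to the morula 3 of 7 moved, BID higher and BCL2L1 and BCL2L11 lower, against 23.3% of 12746 genes (12.0% higher, 11.3% lower). This split turned round under the other scalings. It was 12.1% higher and 12.4% lower with non-mitochondrial scaling, 10.3% and 13.2% with median scaling, and 11.6% and 13.0% with quantile normalisation. At the step to the blastocyst 2 of 7 moved, BCL2L1 higher and BAD lower, against 27.6% (13.8% higher, 13.8% lower). With median scaling the last split was 12.1% higher and 15.9% lower. Members passed the minimum of 1 RPM mostly through the library in which they were high, so these counts describe the compared members and not the family at large.

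At a threshold of 1 in place of 2, which is 2-fold on that scale, 0 of 5 cow members passed at the first step, against 12.0% of all genes. The BH3-only genes, BCL2, BCL2L1 and BAX made 6 of 7 at the cow step to the 8-16 cell stage, against 62.9%, followed by 4 of 7 at the step to the morula, against 42.0%, and 4 of 9 at the step to the blastocyst, against 56.9%. Between cow oocytes and blastocysts 6 of 9 passed it, against 70.4%. The pig members that passed it were 2 of 4 at the first step, against 27.3%, and 4 of 7 at the second, against 25.4%. Then 6 of 7 passed at the step to the morula, against 56.4%, and 6 of 7 at the step to the blastocyst, against 59.8%. Between pig oocytes and blastocysts 7 of 7 passed it, against 72.5%.

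Between oocyte and blastocyst 2 of 9 cow members rose, BCL2L1 and BOK, and none fell, against 40.2% of 12738 genes that rose or fell (21.8% higher, 18.4% lower). With scaling to non-mitochondrial gene reads, which removes the larger mitochondrial share of the blastocyst library, 4 of 9 rose, against 44.1% of all genes that rose or fell (27.7% higher, 16.4% lower). In pig 3 of 7 rose, BAK1, BCL2L11 and BID, and 1 fell, BCL2L10, against 45.2% of 12512 genes (26.0% higher, 19.2% lower). With median scaling the split over all genes became 15.8% higher and 25.3% lower in cow, and 18.4% and 26.3% in pig. The pig BID difference of 2.33 was 1.71 with median scaling and 1.75 with the oocyte set to the floor. The median difference of the compared members was 1.38 in cow and 1.64 in pig (1.06 with the floor), with a median over all genes of 0.18 and 0.43.

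**Figure D3:**
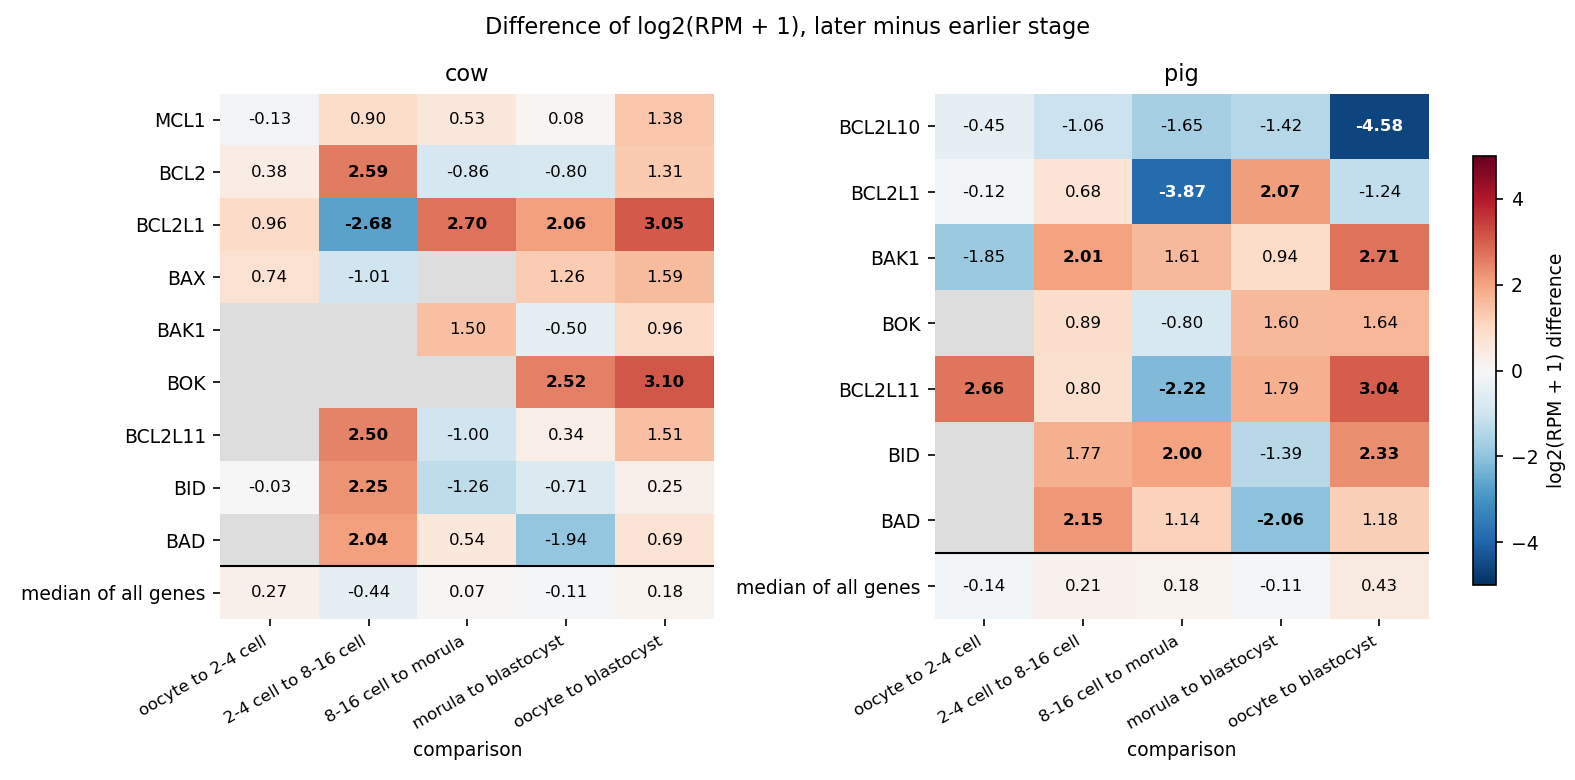
Difference of log2(RPM + 1), later minus earlier stage, for each member (rows) at the 4 consecutive steps and from oocyte to blastocyst (columns), with the median of all compared genes in the bottom row; bold marks a difference of 2 or more, and grey a pair of libraries both under 1 RPM. The cow column for the 2-4 cell to 8-16 cell step holds 4 values above 2 and BCL2L1 at -2.68, and the pig column for the 8-16 cell stage to the morula holds BCL2L1 at -3.87.

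Reads of the other members per 100 BCL2L1 reads of the same library also do not depend on scaling, and were read as changes over stages. In cow BID went from 5.43 per 100 at the 2-4 cell stage (exact 95% interval 2.14 to 11.5) to 305 at the 8-16 cell stage (181 to 534), 13.9 in morulae (7.69 to 23.6) and 1.67 in blastocysts (1.13 to 2.40). BAD went from 1.55 (0.186 to 5.72) to 135 (72.9 to 254), then 26.1 (16.8 to 39.3) and 1.004 (0.594 to 1.59) at these stages. BCL2L11 peaked at the 8-16 cell stage as well, at 195 (111 to 353). All 3 cow BH3-only ratios were thus highest in the 8-16 cell library, with intervals that met none of the other libraries.

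In pig the same ratios peaked 1 stage later for BID and BAD. Whether this later peak is particular to these genes was not tested. BID went from 0.918 per 100 at the 8-16 cell stage (0.439 to 1.70) to 69.1 in morulae (46.6 to 102) and 5.45 in blastocysts (3.29 to 8.54). BAD went from 1.29 (0.700 to 2.17) to 48.5 (31.0 to 74.6) and 1.91 (0.761 to 3.97). The BAK1 row went from 5.14 (3.86 to 6.73) to 247 (185 to 332) and 110 (95.1 to 127), with the overlap given above. BCL2L11 did not share this peak: it stood at 8.82 in morulae (3.13 to 20.2) and 9.54 in blastocysts (6.54 to 13.5). All ratios of a library share 1 denominator, so a low BCL2L1 raises them together.

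**Figure D4:**
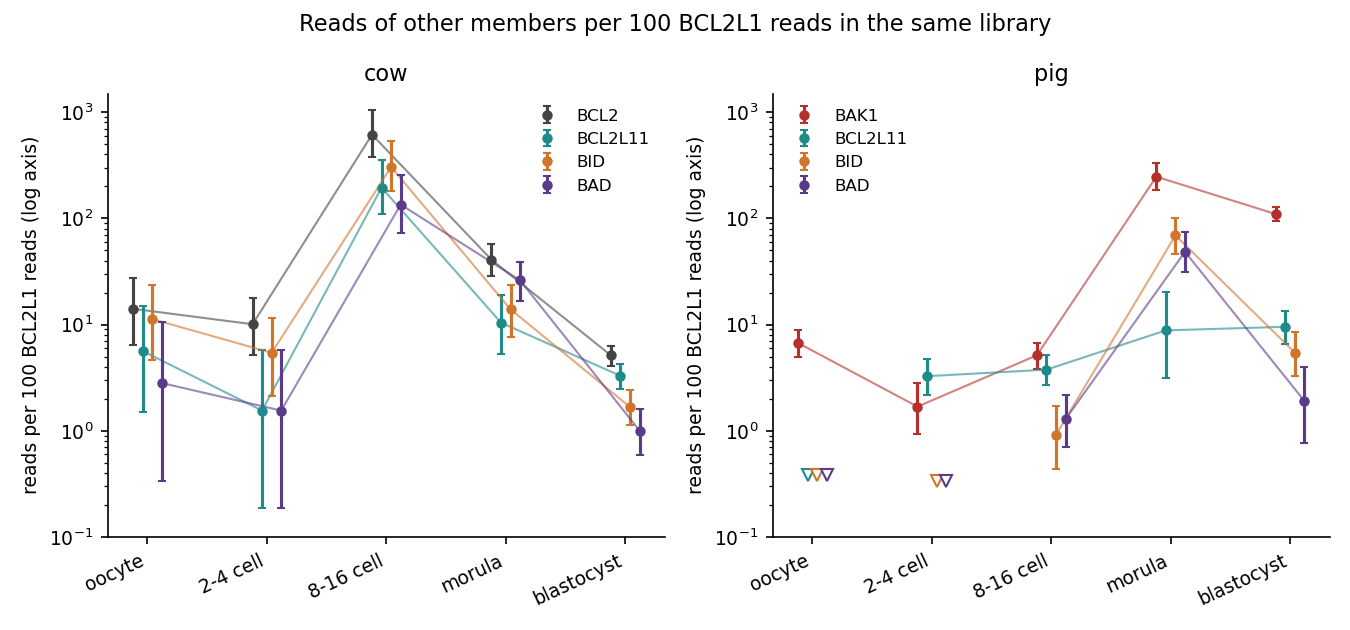
Reads of BCL2 (cow), BAK1 (pig) and the 3 BH3-only genes per 100 BCL2L1 reads of the same library (log axis) over the 5 stages, with exact conditional 95% intervals; open triangles mark 0 reads, drawn at the ratio that 3 reads would give. BID peaks at 305 in the cow 8-16 cell library and at 69.1 in pig morulae.

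Genes with the most similar course were sought for the 3 shared members with the widest range, BCL2L1, BAK1 and BID, among 6278 symbols that reached 10 RPM in both species. The measure was the Euclidean distance between stage-centred log2(RPM + 1) values over the 10 libraries, given as a description. The nearest to BCL2L1 were NOL4L (distance 1.22), LIPC (1.56) and SHISA5 (1.68). NOL4L stood at 6.53, 0.736 and 3.59 RPM at the cow 2-4 cell, 8-16 cell and morula stages and at 28.1 and 2.66 RPM at the pig 8-16 cell and morula stages, the same low points as BCL2L1. SUGP1 (1.01), RLIM (1.24) and CACYBP (1.33) were nearest to BID. INTS7 (1.14), AHCYL1 (1.17) and LMBR1 (1.18) were nearest to BAK1, whose cow levels rest on at most 19 reads.

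The rest of the family was followed in a list of 13 further symbols, of which 10 were in the cow and 9 in the pig table. From oocyte to blastocyst 1 of 5 compared genes rose and 1 fell in cow, with a median of -1.24, and 2 of 7 rose and 3 fell in pig, with a median of -1.12. The shares over all genes were 21.8% higher and 18.4% lower in cow, and 26.0% and 19.2% in pig. The pig rise of the mitochondrial protein gene BNIP3 (2.09) was 1.47 with median scaling and 1.37 with quantile normalisation. BCL2L13, a membrane protein of the mitochondrion linked to its clearance, rose in both species: in cow it went from 3.25 to 53.4 RPM (16.5-fold, 10.1 to 29.0) and in pig from 1.78 to 90.1 RPM (50.7-fold, 23.1 to 139). BCL2A1 and HRK had 0 reads in all 5 cow libraries, and HRK had 0 reads in all 5 pig libraries.

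The downstream list of 18 caspases, apoptosome parts and inhibitors of apoptosis had 17 members in cow and 13 in pig. From oocyte to blastocyst 0 of 15 compared genes rose and 2 fell in cow, with a median of -0.00, and 4 of 12 rose and 1 fell in pig, with a median of 1.06. Over all genes 21.8% rose and 18.4% fell in cow, with a median of 0.18, and 26.0% rose and 19.2% fell in pig, with a median of 0.43. The cow genes that fell were APAF1, the scaffold of the apoptosome, from 352 to 15.7 RPM, and XIAP, an inhibitor of caspases, from 70.0 to 14.6 RPM. The pig genes that rose were the mitochondrial proteins CYCS (cytochrome c), HTRA2, ENDOG and AIFM1, with CYCS going from 64.8 to 530.1 RPM. The pig rows of HTRA2 and ENDOG overlap other genes. APAF1 in pig went from 47.1 to 24.1 RPM, a difference of -0.94. None of these genes passed in both species, but in cow CYCS, HTRA2 and AIFM1 were just short of 2, at 1.84, 1.83 and 1.73, and passed with scaling to non-mitochondrial gene reads, at 2.25, 2.30 and 2.14. With median scaling pig AIFM1 was 1.44, and with non-mitochondrial scaling cow XIAP was -1.82.

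Of 14 upstream regulators, 6 rose and 2 fell among 14 compared in cow (median 0.13), and 9 rose and 1 fell among 13 in pig (median 4.01), beside 21.8% and 18.4% of all genes in cow and 26.0% and 19.2% in pig. Of these calls, cow FADD was 1.79 with median scaling, and cow MDM4 was -1.72 with non-mitochondrial scaling and -1.76 with quantile normalisation. FAS, a death receptor, rose in cow from 2 reads to 8.46 RPM, where the row overlaps ACTA2, and in pig from 0 reads to 58.4 RPM, at least 65.8-fold. VDAC2, a channel of the outer mitochondrial membrane that binds BAK1, rose in cow from 46.0 to 597 RPM and in pig from 7.11 to 627 RPM. TPT1, which encodes an MCL1-binding protein, rose from 134 to 1022 RPM in cow, where 2 rows carry the symbol and the higher was taken, and in pig from 90.0 to 3724 RPM. MDM2, which encodes a ubiquitin ligase, fell from 149 to 26.4 RPM in cow (5.63-fold, 4.97 to 6.39) and rose from 4.44 to 782 RPM in pig (176-fold, 107 to 315).

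Of the upstream list, 3 genes whose products are known to act on MCL1 protein were picked out after their values were seen. HUWE1, which marks MCL1 for degradation, rose in cow from 78.9 to 595 RPM and in pig from 87.6 to 451 RPM. USP9X, which removes the mark, fell in pig from 901 to 153 RPM, and in cow went from 712 to 223 RPM, a difference of -1.67. FBXW7, a subunit of another ligase for MCL1, rose in pig from 7.11 to 130.03 RPM (18.3-fold, 12.2 to 28.8), where its row overlaps another, and in cow went from 78.3 to 28.2 RPM, a difference of -1.44. With median scaling HUWE1 in pig was 1.73 and USP9X in cow -2.17.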

How the data were processed

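Total RNA of 10 libraries was sequenced after isolation with a kit for small samples, cDNA amplification and 8 cycles of PCR, per the labels' protocols, so reads are not independent molecules. The submitters' processing notes name Trim Galore 0.6.4, HISAT2 2.1.0 and the builds UMD3.1 and Sscrofa11.1; counting, annotation, strand and duplicate handling are not given in the sources used here. The deposited values are on a log2 scale. The lowest value of a column stands for 0 reads, written as 0.9 of a read, and the next one for 1 read. Of the other values 99.97% to 100% were whole multiples of 1 read within 0.02 of a read, so the values were read as log2 RPM. Reads and library totals were recovered from this. Differences used the deposited values with a pseudocount of 1 RPM. Levels were given exact Poisson intervals, ratios exact conditional binomial ones and shares Wilson ones (scipy 1.17.1, Python 3.11.15); these cover counting error only. A library with 0 reads was set to the floor of 3 reads for folds, which are then lower bounds, and no fold was formed where both libraries had 3 reads or fewer. Recovery of reads and calls was tested on simulated data. The tables were scaled separately, so no level was tested across species. Rows were matched by symbol; of repeated symbols the row with the highest mean was used. The members and lists were chosen with earlier results of these data known. From each further list, the text names the genes that passed in both species (at most 4) and those that passed in opposite directions; other named genes were picked after their values were seen, and some list genes are not reported here. Alternatives changed the pseudocount, threshold, minimum, scaling, repeated symbols and the value of 0 reads, the last chosen after seeing the data.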

Additional observations from a re-analysis of the deposited data

Results flagged for a closer look

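The pairs of values below moved in opposite directions in cow and pig, by at least 1 on the log2(RPM + 1) scale in each species and with counting intervals of the ratio that exclude 1. With 1 library per species and stage the difference between the species was not tested. Over all genes, the share that rose or fell at the step to the 8-16 cell stage was 27.2% in cow and 4.87% in pig. At the step to the morula it was 11.8% in cow and 23.3% in pig. Whether the opposite directions are particular to the genes below was not tested. BCL2L1 differed by 2.70 in cow and by -3.87 in pig from the 8-16 cell stage to the morula, and by 3.05 in cow and -1.24 in pig from oocyte to blastocyst; the pig row shares 192 bases with TPX2. BID differed by -1.26 in cow and by 2.00 in pig from the 8-16 cell stage to the morula. The members in both tables were searched at every step, and the genes of the 3 further lists from oocyte to blastocyst only. Of these lists MDM2 differed by -2.45 in cow and by 7.17 in pig. FBXW7 differed by -1.44 in cow and 4.01 in pig, BNIP3 by -1.88 and 2.09, MDM4 by -2.11 and 1.46, and VDAC3 by -1.70 and 1.48; the pig rows of FBXW7, MDM4 and VDAC3 overlap other rows.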

How the results depend on the processing

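Of 90 recomputed counts of members that rose or fell, 75 stayed within 1.5 times the reported one. Only the total was compared, so the genes behind an unchanged count can differ. With median scaling the cow step to the blastocyst still gave 2, but these were BOK higher (2.28) and BAD lower (-2.18). A threshold of 1 in place of 2 gave 4 for the cow step to the morula, 4 for the cow step to the blastocyst, 6 for cow oocyte to blastocyst, and in pig 2, 4, 6 and 6 for the 4 consecutive steps and 7 for oocyte to blastocyst. A pseudocount of 0.5 RPM gave 2 for the cow step to the morula, against 15.9% of all genes (8.65% higher, 7.25% lower). Scaling to non-mitochondrial gene reads gave 4 for cow oocyte to blastocyst. For the pig step to the 8-16 cell stage a minimum of 5 RPM, which leaves fewer genes compared, gave 1. Over all genes this minimum gave 6.10% (5.49% higher, 0.606% lower). Median scaling and quantile normalisation each gave 0 for that step. For the pig step to the blastocyst median scaling gave 1, against 28.0% of all genes (12.1% higher, 15.9% lower). Quantile normalisation gave 1 for that step, against 26.3% (13.2% higher, 13.1% lower). Apart from the minimum and the threshold, the cause was not tested. Of 96 recomputed member differences from oocyte to blastocyst 85 stayed within the counting interval and 11 left it, and no difference that had passed 2 changed sign. From oocyte to blastocyst the median over all genes, 0.18 in cow and 0.43 in pig, was 0.59 and 0.53 with non-mitochondrial scaling and -0.32 and -0.19 with median scaling. The cow BID difference of 0.25 was -0.25 with median scaling. No paired analysis was possible because each group has 1 library. Members at a few reads (cow BAX and BAK1, BOK in pig) are limited by depth: the floor is between 0.212 and 0.999 RPM.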

Other observations

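Some further family genes were prominent in 1 species. BCL2L15 in pig stood at 268, 313, 316, 98.9 and 26.0 RPM from oocyte to blastocyst, whereas in cow it had 0 reads in 4 libraries and 2 at the 8-16 cell stage. The pig row shares 4276 bases with MAGI3 on the other strand, which stood at 509, 629, 701, 195 and 72.1 RPM, and the part of MAGI3 reads in the BCL2L15 row was not tested. BCL2L14 in pig fell from 104 RPM in the oocyte library to 1.88 RPM in the blastocyst library (55.5-fold, 26.7 to 139), with 83.1 RPM at the 8-16 cell stage and 2.997 RPM in the morula library, and its row overlaps no other. In cow BCL2L14 stayed between 1.48 and 6.53 RPM. BMF, a BH3-only gene, fell in pig from 8.59 RPM to 0 reads, at least 10.7-fold, so that of the BH3-only genes measured in pig it had its highest library in the oocyte while BCL2L11, BID and BAD had 0 reads there. BCL2L2, the guardian BCL-W, fell in cow from 10.8 to 0.564 RPM (19.1-fold, 9.003 to 46.4). BCL2L2 was not analysed here in pig, so it cannot be compared between the species. These genes were picked out after their values were seen.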
